A study of Mus musculus with 16 samples.

Results

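An antibody against CPEB4 was used on lysates of macrophages that lack CPEB4, and the 3′-UTRs that it recovered or lost relative to the same lysates' Input RNA are described here. The members are the genes with at least 20 reads in the pair of a knockout (KO) RIP library and its KO Input library in both treatments, which were 5605 of the 14925 gene symbols in the tables. They rest on 4 of the 8 libraries of the series, which are 8 of its 16 listed samples because each library was run on lanes 7 and 8 and listed once per lane. Each gene was read from 1 annotated 3′-UTR region (mm10), the one with the most reads over all 8 libraries.

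The series compared CPEB4-bound and total RNA of bone marrow-derived macrophages (BMDMs) from Cpeb4 KO mice and wild-type (WT) mice of strain C57BL/6J 129. All KO libraries came from the culture numbered 73 and all WT libraries from the culture numbered 76. Cells were left untreated or were given LPS, the bacterial cell wall component that triggers the inflammatory response of macrophages, at 10 ng/ml for 9 h. RNA was crosslinked to protein with formaldehyde, lysates were sonicated, and part was kept as Input while the rest was immunoprecipitated with anti-CPEB4 on protein A beads (RIP). The mice were full knockouts (Cpeb4-/-), not the myeloid-specific line, and the cells were differentiated with medium conditioned by L cells as a source of M-CSF.

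CPEB4 belongs to a family of RNA-binding proteins that attach to a U-rich element in the 3′-UTR, the cytoplasmic polyadenylation element (CPE), and thereby set the length of the poly(A) tail and the translation of the mRNA. An antibody on beads also retains RNA that does not depend on its antigen, through the beads, through the antibody itself or through other proteins. A RIP from cells without the antigen measures that share. In macrophages many mRNAs of the LPS response carry A- and U-rich elements, and the base composition of 3′-UTRs differs between functional groups of genes.

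The KO RIP libraries held 467696 (untreated) and 871482 (LPS) reads in 3′-UTR regions with a symbol, and the KO Input libraries 1325968 and 1502378. These reads were 27.5% and 32.1% of the KO RIP library totals and 46.9% and 51.5% of the KO Input totals. Each genotype, treatment and assay had 1 library, so there was no test between conditions and no replicate error. The intervals given are 95% counting intervals, which cover counting error only. By the labels the Input RNA was depleted of rRNA before library preparation and the RIP RNA was not, so that step and the immunoprecipitation cannot be told apart in any ratio of RIP over Input. The cells carried macrophage transcripts. All 10 macrophage markers were measured in both treatments, among them Lyz2 (lysozyme) with 1977 and 1983 reads and Csf1r (the M-CSF receptor) with 762 and 518 reads in the untreated and LPS Input. None of the B cell, T cell, neutrophil, erythroid and fibroblast markers that have a region had more than 2 reads in any KO library. Only 1 of 7 neutrophil markers and 3 of 5 in each of the other lists had a region, so few genes were checked.

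Without CPEB4 the antibody recovered A- and U-rich 3′-UTRs and lost G- and C-rich ones, and it did so alike in untreated and LPS-treated cells. A gene was called recovered where RIP exceeded Input by at least 2-fold (log2 ratio of at least 1) with a counting interval above 0, and lost where it fell below Input by as much with an interval below 0. In untreated KO cells 898 of 6233 genes were recovered (14.4%) and 597 were lost (9.58%). After LPS 901 of 6472 were recovered (13.9%) and 697 were lost (10.8%). In both treatments 514 of the 5605 genes were recovered (9.17%) and 315 were lost (5.62%). The 514 genes were 65.1% of the 789 recovered in untreated cells and 70.8% of the 726 recovered after LPS that could be measured in both. The 315 genes were 55.5% of the 568 lost in untreated cells and 50.2% of the 627 lost after LPS. Recovered genes had few Input reads, and the filter on the sum of a pair admits a gene through its RIP reads, so the share of recovered genes depends on it. Among the 4648 genes with at least 20 reads in each KO Input alone, 261 were recovered in both and 315 were lost in both.

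The split between recovered and lost genes depends on the scaling, since 3′-UTRs took a smaller share of the KO RIP libraries than of the Inputs. Recovered genes were 62.0% of the 829 genes called in both treatments when each library was scaled to its own 3′-UTR reads. They were 46.0% with TMM factors, 51.2% with median-of-ratios factors and 7.02% with library totals, where 125 genes were recovered and 1656 were lost. Scaling to library totals lowers every log2 ratio by 0.77 in untreated and by 0.68 in LPS-treated cells. It moves all genes of a treatment by the same amount, so the order of the genes and the differences between gene groups within a treatment do not change with it. Words such as recovered and lost are therefore relative to the average 3′-UTR of the same library.

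The log2 ratios of the 5605 genes in the untreated and the LPS pair had a Pearson r of 0.81 and a Spearman rho of 0.80 across genes, which are not independent replicates. Among the 1089 genes with at least 200 reads in both pairs r was 0.91 and rho was 0.90. The standard deviation of the log2 ratio across genes was 0.93 in untreated and 0.91 in LPS-treated cells. The difference between the treatments had a standard deviation of 0.56 across genes, where counting error alone gives 0.55. Both pairs came from 1 culture, and no library was shared between them. Of the 5605 genes 1 was called in opposite directions in the treatments.

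**Figure D1:**
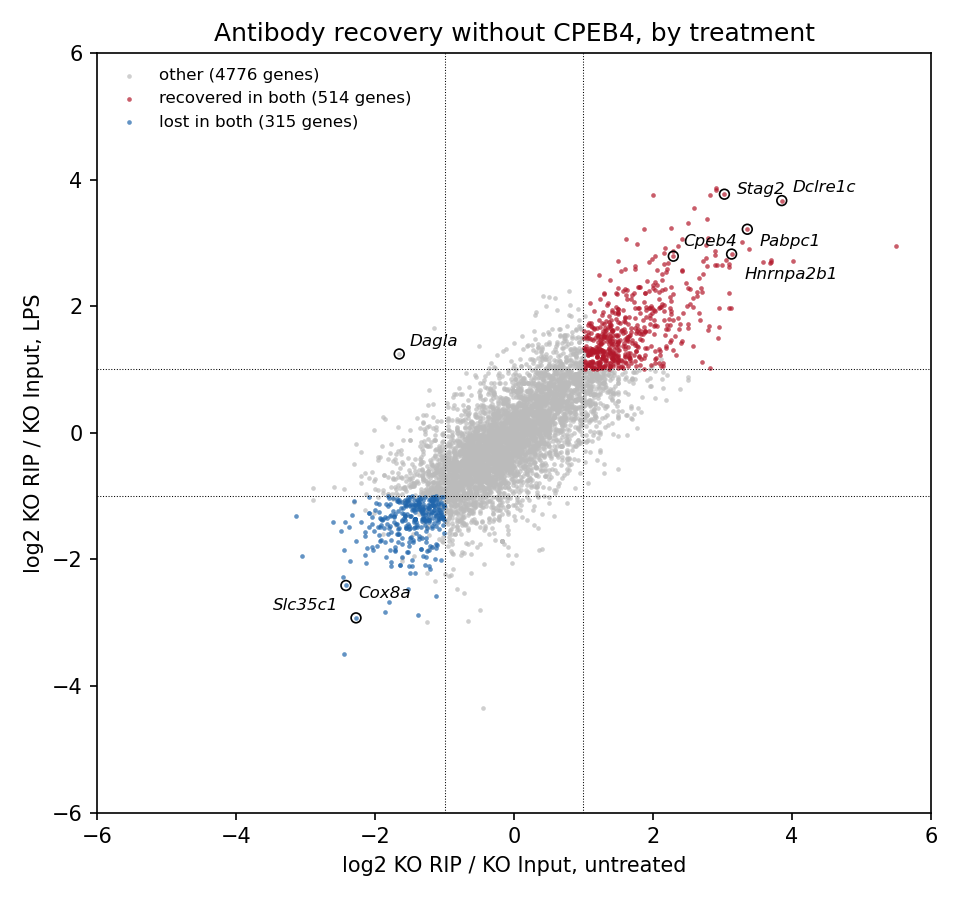
Each point is 1 of the 5605 genes, with the log2 ratio of KO RIP over KO Input in untreated cells on the x axis and after LPS on the y axis, and dotted lines at a log2 ratio of 1 and -1. The 514 genes recovered in both treatments (red) and the 315 lost in both (blue) lie along 1 diagonal, and Dagla is the 1 gene called in opposite directions.

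The strongest recovered 3′-UTRs are shown first by sequence. Of the 12 genes with the highest ratio in both treatments (at least 50 reads in each pair, ranked by the lower of the 2 ratios), 11 held a CPE motif, counted on the transcript strand with overlapping matches allowed. The motifs were TTTTAT and TTTTAAT and also TTTTAAAT, besides TTTTACT and TTTTCAT and, last, TTTTAAGT. Of the 12 genes with the lowest ratio 3 held one. Over all 5605 regions 76.0% held at least 1 such motif, as did 89.9% of the 514 recovered and 55.6% of the 315 lost genes. The following sites hold the last CPE motif before the 3′ end of the region in recovered genes, with the motif in capitals, read from the mm10 genome (GRCm38.p6) on the strand of the transcript. They are shown for the bases around the motif, which were mostly A and U in Stag2, Ddx3y and Cpeb4 and more mixed in Pabpc1.
Stag2 (chrX:42276811-42276840, + strand): aacatacatttgTTTTATtaattaatggtt
Ddx3y (chrY:1260880-1260909, - strand): gatctattctcaTTTTATtaaaataaaaag
Syncrip (chr9:88449793-88449822, - strand): ctgatgttaagaTTTTATgtatagcataag
Hnrnpa2b1 (chr6:51460800-51460829, - strand): caaaacactgatTTTTATtccaattgtgaa
Pabpc1 (chr15:36595837-36595866, - strand): aacaaattaatgTTTTATagaccctgggaa
Cpeb4 (chr11:31935573-31935602, + strand): atgcatataatTTTTAAATatttgtaatgt

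For 4 of the lost genes the polyadenylation signal nearest to the 3′ end is given, AATAAA or ATTAAA in capitals, which 93.1% of all measured regions, 97.5% of the recovered and 90.2% of the lost ones held on the transcript strand. Of the 3 genes among the 12 lowest that held a CPE motif, Gpc1 had only A and U around its last one. Il2rg, another of the 3, is given with its CPE motif in capitals.
Cox8a (chr19:7215166-7215195, - strand): cccctttgtaacAATAAAgtctatttaaac
Cd82 (chr2:93419115-93419144, - strand): ctggaatcaattATTAAAggagggtttata
Dcaf11 (chr14:55570030-55570059, + strand): tgtggctctcccAATAAActgtctgtggga
Clptm1 (chr7:19631587-19631616, - strand): cttgtttgaaagAATAAAaaatggaaaaca
Il2rg (chrX:101264452-101264481, - strand): atggtccttctcTTTTATaggattctccct

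The 12 genes recovered most in both treatments are described first. Pabpc1, the cytoplasmic poly(A)-binding protein, had 46 Input and 169 RIP reads in untreated cells and 35 and 193 after LPS. Its log2 ratio was 3.36 (2.89 to 3.82) and 3.22 (2.70 to 3.73). Hnrnpa2b1, a nuclear RNA-binding protein of the hnRNP family, had 86 Input and 268 RIP reads in untreated cells and 65 and 270 after LPS, with ratios of 3.13 (2.78 to 3.48) and 2.82 (2.44 to 3.21). Both RIP libraries held more reads than the deeper Input libraries for these genes. Stag2, a subunit of the cohesin ring that holds sister chromatids together, had 40 and 117 reads in the untreated and 21 and 173 reads in the LPS pair. Its ratios were 3.03 (2.52 to 3.54) and 3.77 (3.13 to 4.41). Its paralogue Stag1 had 23 and 69 reads in untreated cells and 17 and 68 after LPS, with ratios of 3.05 (2.38 to 3.72) and 2.72 (1.98 to 3.47). The intervals of the 2 paralogues overlapped in both treatments. Syncrip, another hnRNP-like protein, had 67 and 162 reads and then 30 and 139, with ratios of 2.76 (2.36 to 3.17) and 2.96 (2.40 to 3.52). Sp3, a transcription factor that binds GC boxes, had 30 and 73 reads and then 27 and 109, with a ratio of 2.76 in both treatments.

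The remaining 6 of the 12 highest genes were Dclre1c (the Artemis nuclease of DNA end joining), Eef1b2 (an exchange factor of translation elongation), Rsrp1, Ddx3y (a Y-linked RNA helicase), Fbxo11 (a ubiquitin ligase subunit) and Gm4070. Dclre1c had the highest ratios of the 12 in untreated cells, 3.85 (2.88 to 4.83) from 9 Input and 50 RIP reads, and 3.67 (2.60 to 4.73) after LPS from 7 and 58 reads. Eef1b2 was the 1 gene of the 12 without a CPE motif, with a 3′-UTR region of 452 bases and 45.1% GC, and had 27 and 95 reads in untreated cells and 18 and 88 after LPS. The GC content of the 12 regions ran from 27.6% to 45.1%. Pabpc1, Eef1b2 and Hnrnpa2b1 have processed pseudogenes, and Ddx3y a close paralogue on the X chromosome, so their reads may have been split or shared in the mapping.

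The 12 genes lost most in both treatments are described next. Cox8a, a subunit of cytochrome c oxidase, had 90 Input and 5 RIP reads in untreated cells and 155 and 16 after LPS. Its log2 ratio was -2.42 (-3.61 to -1.23) and -2.41 (-3.13 to -1.69). Slc35c1, the GDP-fucose transporter of the Golgi, had 95 and 6 reads and then 156 and 11, with ratios of -2.27 (-3.38 to -1.17) and -2.92 (-3.77 to -2.08). In both genes the RIP reads were few, and the intervals were wide for that reason. Cd82, a tetraspanin of the cell surface, had 117 and 4 reads in untreated cells and 297 and 44 after LPS, with ratios of -3.06 (-4.35 to -1.77) and -1.94 (-2.39 to -1.49). Il2rg, the common gamma chain of cytokine receptors, had 86 and 5 reads and then 251 and 35, with ratios of -2.35 and -2.02. Syngr2, a vesicle membrane protein, had 250 and 19 reads and then 328 and 49, with ratios of -2.15 and -1.93. All of them had more Input reads after LPS than before, and were lost in both.

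The other 7 of the 12 lowest genes were Pld3 (a lysosomal nuclease), Plpp2 (a phospholipid phosphatase), Gpc1 (a glypican), Clptm1, Gpr108, Dcaf11 (a substrate receptor of a ubiquitin ligase) and Cln3 (a lysosomal membrane protein). Pld3 had 209 and 16 reads in untreated cells and 143 and 19 after LPS, with ratios of -2.12 (-2.84 to -1.41) and -2.06 (-2.74 to -1.39). Clptm1 had 171 and 13 reads and then 193 and 31, with ratios of -2.12 (-2.90 to -1.33) and -1.81 (-2.35 to -1.27). Cln3 was read from a region of only 70 bases, and its place among the lowest genes depended on that choice. With its longest region the ratios of Cln3 were -1.02 in untreated and -0.21 in LPS-treated cells, and neither was called. With its regions summed they were -1.84 and -1.03, and both calls stayed. The GC content of the 12 regions ran from 48.1% to 58.6%, which did not overlap the range of the 12 highest genes. With the scaling to 3′-UTR reads a fold of at least 4 in both treatments was reached by 76 of the 514 recovered and by 6 of the 315 lost genes. These counts depend on the scaling, which with library totals moves every ratio down, and recovered genes could pass the filter on their RIP reads alone.

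**Figure D2:**
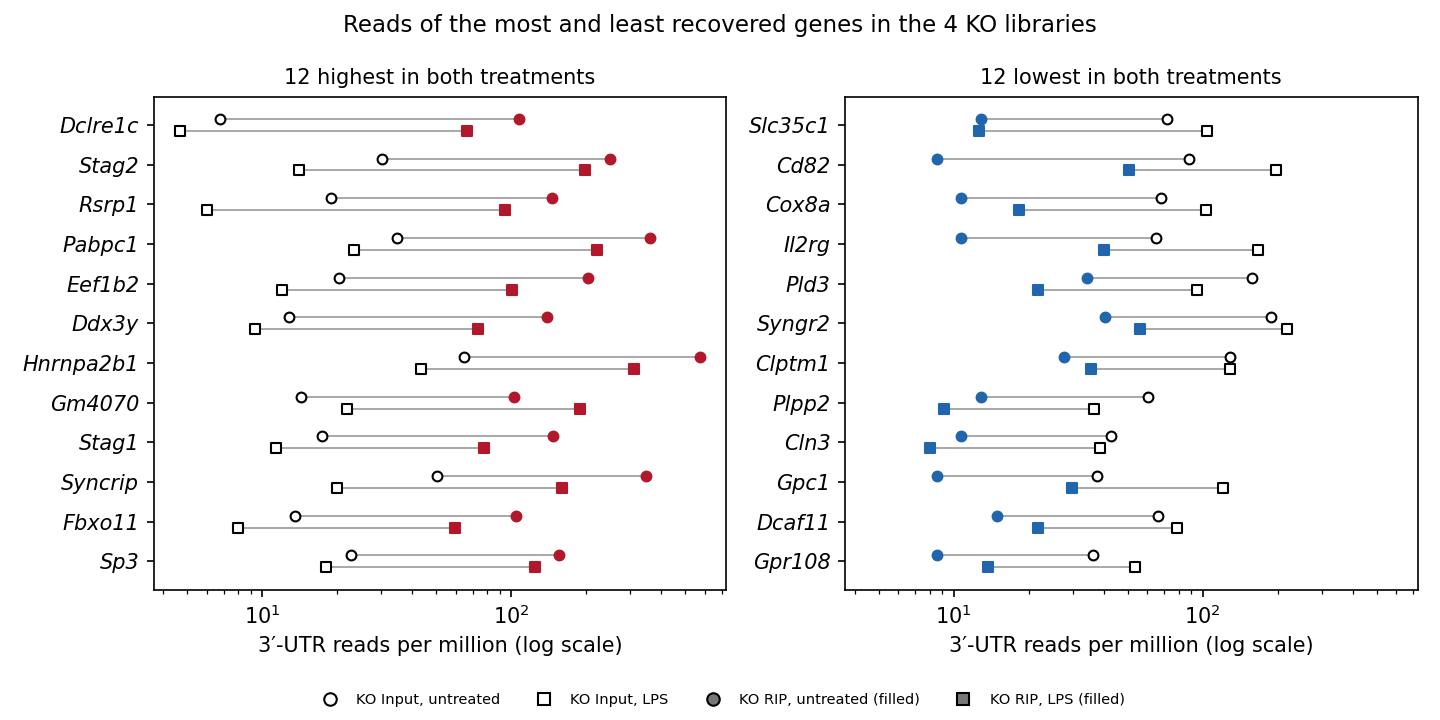
Reads scaled to a common total of 3′-UTR reads per library (CPM, log scale) of the 12 genes with the highest and the 12 with the lowest ratio in both treatments, open symbols for KO Input and filled symbols for KO RIP, circles for untreated and squares for LPS. In every one of the 24 genes the 2 RIP values lie on the same side of their Inputs.

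Within 1 treatment, among genes with at least 50 reads in its pair, the extremes included genes with very few Input reads. In untreated cells the 5 highest ratios of these genes were those of Mad2l1, Nusap1, Dclre1c, Pnisr and Ddx3y. Mad2l1, a spindle checkpoint gene, had 3 Input and 63 RIP reads there, a ratio of 5.50 (4.05 to 6.96), and 5 and 26 after LPS, a ratio of 2.96 (1.68 to 4.23). Under the same limit the 5 highest after LPS were Rsrp1, Stag2, Ssb (the La protein), Gm6793 and Dclre1c. Ssb had 11 and 16 reads in untreated cells and 5 and 46 after LPS, with ratios of 2.01 (0.94 to 3.07) and 3.76 (2.53 to 4.98). The 5 lowest of these genes in untreated cells were Cercam, Cd82, Ssr2, 9030617O03Rik and Lrrc8a, from -3.14 to -2.50. After LPS they were Ubac2, Slc35c1, Stim1 (the calcium sensor of the endoplasmic reticulum), St3gal4 and Cox8a, from -2.98 to -2.41. Genes with fewer reads reached -4.34 and 3.87 after LPS. Ubac2 had 35 and 7 reads in untreated cells, a ratio of -0.67 (-1.77 to 0.44), so it was not called there.

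Near the threshold the calls rest on small steps. In untreated cells Mbd1 and Pbdc1 lay just above a log2 ratio of 1 with 11 RIP reads each, and their intervals reached below 0, so neither was called. Nek7 and Pura lay just below 1 with 120 and 196 RIP reads and intervals of 0.66 to 1.33 and 0.73 to 1.26. On the other side Coa5 and Ei24 lay just beyond -1 in untreated cells, and Maea and Ppfia4 just within it. After LPS Klhl9 and Mitf were just above 1, Echdc1 and Pde7a just below it, Mfsd11 and Nudt16l1 just beyond -1, and 2310022A10Rik and Strada just within it.

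Recovered and lost genes differed in the base composition of the 3′-UTR. The median GC content was 36.4% in the 514 recovered genes (interval of the median 36.0 to 36.9), 52.8% in the 315 lost genes (52.3 to 53.4) and 45.7% in all 5605. Of the recovered genes 74.7% had a GC content under 40%, and 1 of the 315 lost genes did. Of the lost genes 76.8% had a GC content over 50%, and 12 of the 514 recovered genes did. The share of genes recovered in both treatments was 52.6% (Wilson interval 47.3 to 57.7) of the 352 genes under 35% GC, 20.3% of the 981 from 35% to 40%, 7.11% of the 1266 from 40% to 45% and 2.06% of the 1310 from 45% to 50%. It was 0.873% of the 1145 genes from 50% to 55% and 0.544% of the 551 above. The share of lost genes ran the other way, from 0 of the 352 genes under 35%, which allows a share of up to 1.08% by the Wilson interval, to 13% and 17.2% in the 2 highest classes.

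Both A and U were more frequent in recovered genes, with medians of 30.2% A and 33.1% U against 21.3% and 25.6% in lost genes. Across genes GC content had a Spearman rho of -0.62 with the KO ratio in untreated cells and of -0.66 after LPS. A content had a rho of 0.65 and 0.67, and U content of 0.45 and 0.50. In the WT libraries the same genes gave 0.66 and 0.68 for A content and 0.65 and 0.68 for U content. A content thus had nearly equal values with and without CPEB4, and U content had higher ones with it. These are descriptions across genes that share libraries, without a test.

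Motif density followed base composition. The A- and U-rich pentamer ATTTA, the core of elements that control mRNA decay, had a median of 2.63 copies per kb in recovered, 0.43 in lost and 1.34 in all genes, counted on the transcript strand. CPE motifs had medians of 2.91 per kb in recovered, 0.60 in lost and 1.53 in all genes. A functional CPE arrangement was predicted in the deposited tables for 57.8% of recovered (Wilson interval 53.5 to 62.0), 21.6% of lost (17.4 to 26.5) and 40.8% of all genes. Recovered regions were longer than lost ones, with medians of 1641 bases (interval of the median 1502 to 1766) against 966 (862 to 1051). The median of all genes was 1524 (1478 to 1569), and its interval overlapped that of recovered genes. Under 40% GC the share recovered was 31.7% (26.5 to 37.3) of the 281 genes with regions under 1000 bases and 28.0% (25.4 to 30.8) of the 1052 longer ones, and these intervals overlapped. From 40% to 50% GC the share lost was 5.75% (4.27 to 7.71) of the 713 genes with short regions and 1.56% (1.09 to 2.23) of the 1863 with longer ones, and these did not. Over 50% GC the shares lost were 14.7% (12.5 to 17.3) and 14.1% (11.9 to 16.5). The share lost by length was thus apart in the middle class of GC content and overlapped in the highest.

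Among genes of like GC content the KO ratio was nearly equal with and without a predicted CPE. In all genes the median log2 KO ratio was higher with a predicted CPE than without by 0.42 in untreated and by 0.52 in LPS-treated cells. Among genes under 35% GC the median in untreated cells was 1.23 in 256 genes with a predicted CPE and 1.37 in 96 genes without. From 40% to 45% GC it was 0.13 and 0.14, and from 50% to 55% GC it was -0.62 and -0.60. After LPS these pairs were 1.25 and 1.28, 0.15 and 0.17, and -0.55 and -0.64. Over the 6 classes and both treatments the difference with minus without a predicted CPE lay between -0.19 and 0.09. The WT libraries, handled in the same way with the antigen present, gave a difference of 0.20 to 0.98 in every class and both treatments. Measured against the running median of genes of like GC content, genes with a predicted CPE differed from the others by -0.04 (untreated) and 0.01 (LPS) in KO and by 0.30 in both WT pairs. These values compare single libraries, and no test of the difference between genotypes was possible.

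**Figure D3:**
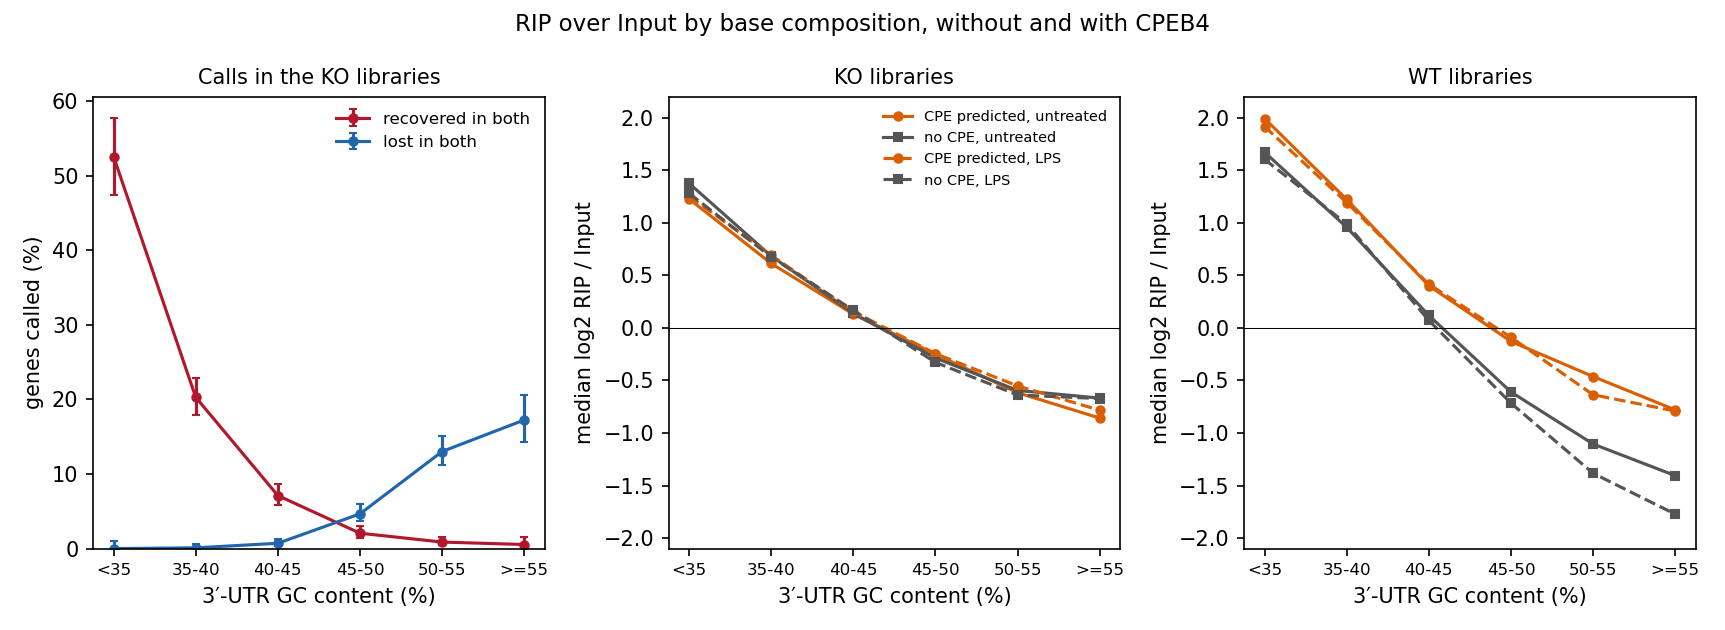
Left, the share of genes recovered (red) and lost (blue) in both treatments of KO cells by 3′-UTR GC content, with 95% Wilson intervals. Middle and right, the median log2 ratio of RIP over Input in KO and in WT libraries for genes with (orange circles) and without (grey squares) a predicted CPE, solid for untreated and dashed for LPS. In KO the medians with and without a predicted CPE differ by -0.19 to 0.09, and in WT genes with a predicted CPE lie above the others by 0.20 to 0.98.

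Part of the spread remained after the trend with GC content was taken off. After subtraction of the running median of genes of like GC content the standard deviation of the KO ratio across genes was 0.73 in untreated and 0.68 in LPS-treated cells, against 0.93 and 0.91 before. The remainders in the treatments had an r of 0.68 across genes. By the same rule on these remainders 217 genes were recovered in both treatments, 157 of them among the 514, and 86 were lost, 43 of them among the 315.

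Some recovered genes had G- and C-rich 3′-UTRs. The 12 with more than 50% GC were Cox4i1, Glp2r, Gm9821, Lilr4b, Nes, Nxf1, Psmd4, Ptpn6, Rgl2, Scnm1, Sugp2 and Zfp768, chosen after their values were seen. Nxf1, the main mRNA export receptor, had the most reads among them, with 88 Input and 80 RIP reads in untreated cells and 82 and 120 after LPS. Its KO ratios were 1.37 (0.93 to 1.80) and 1.33 (0.93 to 1.73), while its WT ratios were 0.20 and -1.01. Ptpn6, the phosphatase SHP-1 of blood cells, had KO ratios of 1.22 (0.50 to 1.94) and 1.03 (0.55 to 1.50) and WT ratios of -0.08 and -0.96. Of the 10 lost genes under 45% GC, also chosen after their values were seen, Casp2, an apoptotic protease, had 175 and 23 reads in untreated cells and 90 and 25 after LPS. Its KO ratios were -1.37 (-1.99 to -0.76) and -1.02 (-1.65 to -0.39), and its WT ratios were 0.58 and 0.36. The others included Apmap, Hgsnat, Nudt19, Plaur, Prickle3, Sdf2l1, Senp3 and Sft2d1.

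Cpeb4's own transcript was among the recovered genes in cells without the protein. Its 3′-UTR region (chr11:31931533-31935634, 4102 bases, 34.3% GC, 25 CPE motifs) had 69 Input and 120 RIP reads in untreated KO cells and 79 and 320 after LPS. The log2 ratio was 2.29 (1.87 to 2.72) and 2.79 (2.44 to 3.14). The transcript was lower in the KO than in the WT Input, at 52.0 against 130.2 CPM (reads scaled to a common total of 3′-UTR reads per library) in untreated cells and 52.6 against 136.0 after LPS. Reads in the 3′-UTR do not show which part of the gene was deleted. The WT ratios of Cpeb4 were 2.67 and 2.50, so its ratios were of the same order with and without the protein. Cpeb2 had KO ratios of 0.92 (0.49 to 1.35) and 1.51 (1.10 to 1.93), and Cpeb3 of 0.74 (0.15 to 1.34) and 1.12 (0.33 to 1.91). Both were recovered after LPS and fell short of the threshold in untreated cells. Their WT ratios were 2.64 and 2.39 for Cpeb2 and 2.30 and 2.68 for Cpeb3. Cpeb1 had 2 reads in the 4 KO libraries together and gives no ratio.

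Ribosomal protein genes, a class with short 3′-UTRs, had counts that depended on the read filter. Of 74 cytosolic ribosomal protein genes 29 passed it in both treatments, and 13 of these were recovered in both (44.8%, against 9.17% of all genes) and none was lost. Part of the 29 passed through their RIP reads, so that the share and the medians of the 29 describe genes selected where they were high. With 20 reads required in each Input alone 14 genes were left, of which 2 were recovered and none was lost, where 261 of 4648 genes (5.62%) were recovered. Their medians were then 1.08 and 0.61 in KO and -0.49 and -0.32 in WT. The median log2 KO ratio of the 29 genes was 1.48 in untreated cells and 0.89 after LPS, where the median of all genes was -0.07 and -0.09. In WT the medians of the same genes were -0.14 and 0.14. Relative to genes of like GC content the KO medians were 1.36 and 0.91. Rpl5, which joins the 5S rRNA to the large subunit, had 16 Input and 38 RIP reads in untreated cells and 9 and 26 after LPS, with KO ratios of 2.70 (1.88 to 3.52) and 2.22 (1.17 to 3.27). Rplp1, a stalk protein, had 56 and 54 reads and then 54 and 73, with KO ratios of 1.45 (0.92 to 1.99) and 1.21 (0.71 to 1.72) and WT ratios of -0.31 and -0.08. Rpl13 had 7 and 33 reads and then 7 and 29, with KO ratios of 3.59 (2.48 to 4.70) and 2.69 (1.57 to 3.82). The others included Rpl14, Rpl26, Rpl27a, Rpl32, Rpl39, Rps15a, Rps20 and Rps4x, with 5 to 29 untreated Input reads each. Most of these regions are short, and ribosomal protein genes have many processed pseudogenes, so reads may have been shared among copies. Of 5 measured translation elongation factor genes, a list chosen after values were seen, 2 were recovered in both (Eef1b2 and Eef1a1), and 1 of 3 with the Input filter. Eef1a1 had KO ratios of 1.75 (1.45 to 2.06) and 1.05 (0.76 to 1.34) and WT ratios of 0.18 and 0.26.

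Several lists of RNA-processing genes are set beside the 9.17% of all genes that were recovered in both treatments, or the 5.62% with 20 reads in each Input alone. Of 9 SR splicing factor genes 5 were recovered in both treatments (Srsf3, Srsf5, Srsf6, Srsf10 and Srsf11, 55.6%) and none was lost, and the count was 5 of 9 also with the Input filter, with medians of 1.29 and 1.23. Srsf3 had 53 Input and 62 RIP reads in untreated cells and 80 and 109 after LPS, with ratios of 1.73 and 1.23. Of 16 hnRNP genes 7 were recovered (Hnrnpa2b1, Hnrnpdl, Hnrnpf, Hnrnph1, Hnrnph2, Hnrnpm and Hnrnpr, 43.8%), and the medians of the 16 were 1.08 and 0.64. With the Input filter 4 of 13 were recovered, with medians of 0.66 and 0.34. Of 8 CCR4-NOT deadenylase genes 3 were recovered (Cnot4, Cnot6l and Cnot11, 37.5%), and 1 of 6 with the Input filter, of which Cnot6l, a catalytic subunit, had 279 and 199 reads and then 106 and 125, with a ratio of 1.02 in both treatments. Relative to genes of like GC content the medians of the SR genes were 0.10 and -0.03, those of the hnRNP genes 0.35 and 0.00 and those of the CCR4-NOT genes -0.01 and -0.02. Of 20 RNA-binding motif (Rbm) genes, a list chosen after values were seen, 4 were recovered and none was lost, and 2 of 15 were recovered with the Input filter.

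Of 8 cohesin genes 4 were measured in both treatments, and all 4 were recovered in both, against 9.17% of all genes. With the Input filter 3 of 3 were recovered, against 5.62%. The list was chosen after Stag1 and Stag2 had been seen, so its counts are no independent evidence. Besides Stag1 and Stag2, Rad21 had 66 and 56 reads in untreated cells and 68 and 90 after LPS, with ratios of 1.27 (0.76 to 1.78) and 1.18 (0.73 to 1.64). Wapl, which releases cohesin from DNA, had 95 and 76 reads and then 88 and 128, with ratios of 1.19 (0.75 to 1.62) and 1.32 (0.93 to 1.71). All 4 were also above 1.7 in both WT pairs.

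Genes of the endoplasmic reticulum had a larger share of lost members than all genes. Of 23 genes for chaperones and the translocon of the endoplasmic reticulum 6 were lost in both treatments (26.1%, against 5.62% of all genes) and none was recovered, with medians of -0.36 and -0.35, and 6 of 21 were lost with the Input filter, against 6.78% of all genes. P4hb, protein disulfide isomerase, had 564 Input and 51 RIP reads in untreated cells and 664 and 125 after LPS, with ratios of -1.94 (-2.35 to -1.53) and -1.61 (-1.89 to -1.34). Hyou1, a chaperone of the hypoxia response, had 232 and 24 reads and then 268 and 63, with ratios of -1.72 (-2.31 to -1.12) and -1.29 (-1.68 to -0.89). Ssr2, a subunit of the translocon-associated complex, had 103 and 5 reads and then 177 and 38, with KO ratios of -2.61 and -1.40 and WT ratios of -0.10 and -0.27. Calr, Sdf2l1 and Sec61a1 were the other 3. In WT the medians of this list were 0.20 and 0.29, and relative to genes of like GC content its KO medians were -0.67 and -0.54.

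Of 26 Golgi glycosyltransferase genes 7 were lost in both treatments (26.9%, against 5.62% of all genes) and 1 was recovered, with medians of -0.75 and -0.74. This list and those of Tmem genes, Cd antigens and integrins were all chosen after values were seen, so their counts are no independent evidence. Galnt2, which starts mucin-type O-glycans, had 307 and 34 reads in untreated cells and 248 and 33 after LPS, with ratios of -1.63 (-2.14 to -1.13) and -2.09 (-2.60 to -1.57). Mgat2 was the recovered member, with a region of 29.5% GC, while its relative Mgat1 had a region of 54.3% GC and was lost with ratios of -1.44 (-1.88 to -0.99) and -1.12 (-1.47 to -0.78). Of 82 Tmem genes 11 were lost (13.4%) and 1, Tmem30a with 33.7% GC, was recovered. Of 10 integrin genes none was lost or recovered in both treatments, a number of genes too small to set against 5.62% and 9.17% of all genes. Of 30 Cd antigen genes 5 were lost (16.7%) and 1, Cd2ap, was recovered. Cd2ap is an adaptor protein and no surface antigen. Cd81 had 413 and 60 reads in untreated cells and 389 and 61 after LPS, with ratios of -1.26 (-1.65 to -0.87) and -1.87 (-2.25 to -1.48).

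Of 91 solute carrier genes 8 were lost (8.79%, against 5.62% of all genes) and 4 were recovered (4.40%, against 9.17%) in both treatments. With the Input filter 8 of 78 were lost and 1 was recovered, where 6.78% and 5.62% of all genes were. The medians of the 91 genes were -0.34 and -0.36, where those of all genes were -0.07 and -0.09. Slc48a1, a lysosomal heme transporter, had 717 and 56 reads and then 1232 and 241, with ratios of -2.15 (-2.54 to -1.76) and -1.56 (-1.76 to -1.36). Of 35 V-ATPase and lysosomal genes 3 were lost (8.57%) and 2 were recovered (5.71%). Lost were 3 subunits of the membrane sector of the proton pump, namely Atp6v0a1, Atp6v0c and Atp6v0d1, and the cathepsins Ctsl and Ctss were recovered. Ctss had 133 and 114 reads and then 106 and 143, with ratios of 1.28 (0.92 to 1.64) and 1.21 (0.85 to 1.58). The GC contents were 33.5% for Ctss and 37.2% for Ctsl against 50.2% to 58.0% for the 3 pump genes.

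The other lists are given by their counts, to be read against 9.17% recovered and 5.62% lost of all genes. Of 68 zinc finger (Zfp) genes 11 were recovered (16.2%) and 2 were lost, and 1 of 45 was recovered with the Input filter. Of 31 translation initiation factor genes 6 were recovered (19.4%) and 2 were lost, and 4 of 29 were recovered with that filter. Oxidative phosphorylation subunits had 3 recovered (Atp5e, Atp5f1 and Cox4i1) and 1 lost (Cox8a) of 24, mitochondrial ribosomal proteins 2 and 0 of 24, and proteasome subunits 2 and 0 of 15. Glycolysis had 0 recovered and 1 lost (Eno1) of 14, with medians of -0.57 and -0.76. Actin cytoskeleton genes had 1 recovered (Tmsb4x, which binds actin monomers) and 0 lost of 35. Tmsb4x had 466 and 517 reads and then 686 and 907, with ratios of 1.65 (1.47 to 1.83) and 1.19 (1.05 to 1.33). Cell cycle genes had 2 and 2 of 11 (18.2% each), DEAD and DEAH box helicases, a list chosen after values were seen, 3 and 0 of 19 (15.8%), and replication-dependent histones 0 and 0 of 8. With the Input filter 0 of 18 oxidative phosphorylation, 0 of 11 mitochondrial ribosomal protein and 0 of 10 proteasome genes were recovered. By that filter 0 of 7 cell cycle genes and 2 of 14 helicases were recovered, where 5.62% of all genes were. Of the 10 macrophage markers 1, Cd68, was lost.

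**Figure D4:**
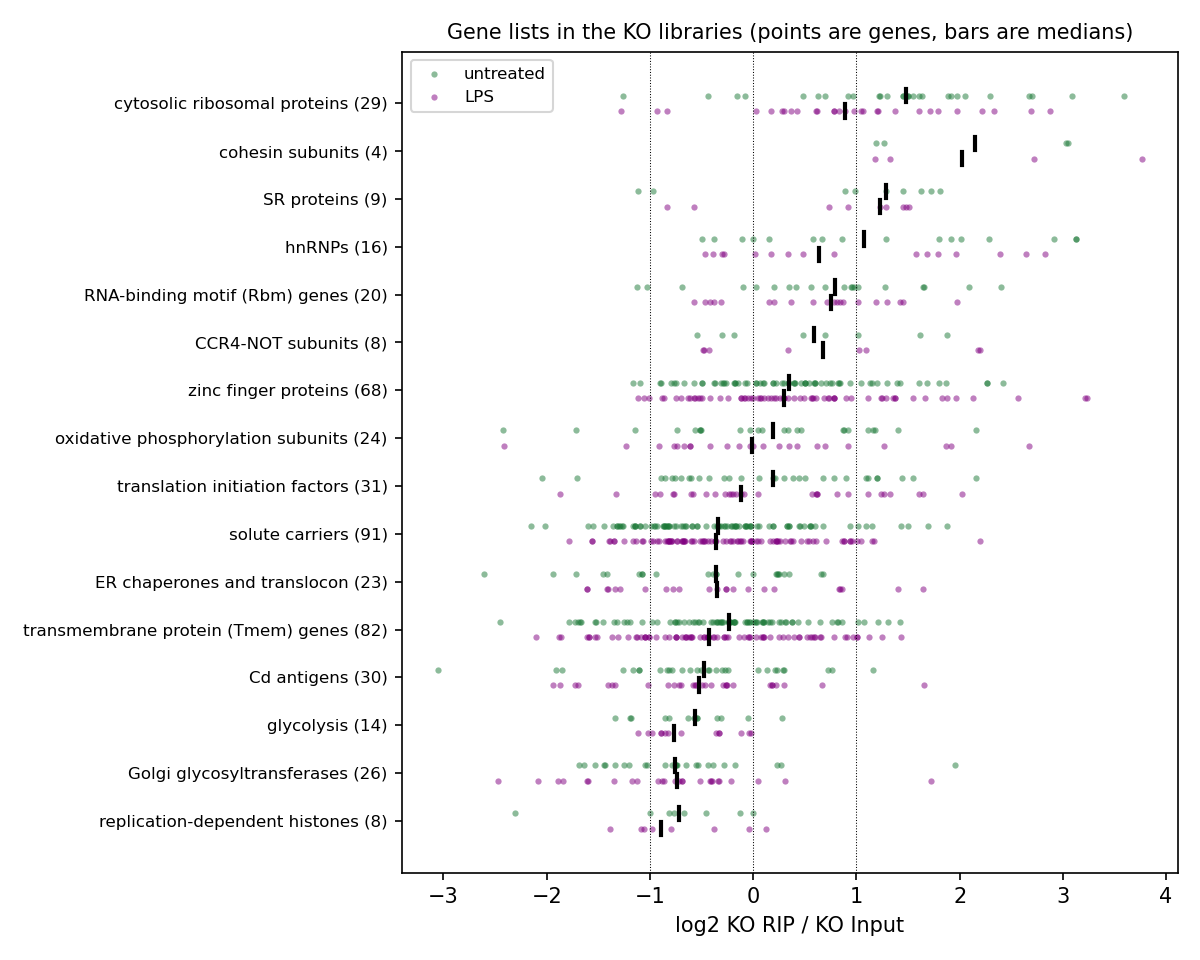
Log2 ratio of KO RIP over KO Input of each gene measured in both treatments (points, green for untreated and purple for LPS) in 16 gene lists, with the number of genes in parentheses and the median as a black bar. Ribosomal protein, cohesin and SR genes lie mostly to the right of 0, and glycosyltransferases, glycolytic genes and histones mostly to the left. Part of the ribosomal protein genes passed the read filter through their RIP reads.

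The inflammatory and control genes that the study followed are given by their values. Of 13 such genes 6 were measured in both treatments, and none of the 6 was recovered or lost in both, a number of genes too small to set against 9.17% and 5.62% of all genes. Txnip, an inhibitor of thioredoxin, had 654 Input and 164 RIP reads in untreated cells and 422 and 161 after LPS, with KO ratios of -0.49 (-0.73 to -0.24) and -0.60 (-0.86 to -0.34) and WT ratios of 0.87 and 0.93. Vegfa had KO ratios of 0.47 (-0.02 to 0.97) and 0.34 (0.03 to 0.64) and WT ratios of 1.21 and 1.27. Zfp36, the mRNA decay factor TTP, had KO ratios of -0.57 (-0.94 to -0.21) and -0.42 (-0.62 to -0.22), and Tnfaip3, the NF-kB inhibitor A20, of 0.84 (0.24 to 1.44) and 0.89 (0.72 to 1.07). Dusp1, a phosphatase of MAP kinases, had 43 and 7 reads and then 156 and 105, with KO ratios of -0.96 (-2.04 to 0.13) and 0.22 (-0.14 to 0.57) and WT ratios of 2.22 and 1.23. Il1rn, the IL-1 receptor antagonist, was lost in untreated KO cells at -1.29 (-2.05 to -0.53) and was at 0.06 (-0.03 to 0.15) after LPS. Of the genes read mainly after LPS, Cxcl2 and Ccl2 were recovered there, at 1.11 (0.82 to 1.40) and 1.50 (0.82 to 2.18), and Ptgs2 at 0.88 (0.70 to 1.06), Cxcl1 at 0.79 (-0.28 to 1.85), Socs1 at -0.55 (-0.90 to -0.20) and Socs3 at -0.13 (-0.25 to -0.01) were not called. Gapdh, read from 43 Input and 8 RIP reads after LPS, was lost at -1.50 (-2.54 to -0.47), and its 15 reads in untreated cells were too few for a call.

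Among interferon-stimulated genes 3 of 25 were recovered in both treatments (12%, against 9.17% of all genes) and none was lost, a share near that of all genes. Ifit2 had 52 and 48 reads in untreated cells and 609 and 1152 after LPS, with KO ratios of 1.39 (0.83 to 1.95) and 1.70 (1.56 to 1.85). Ifit3 had 27 and 44 reads and then 128 and 188, with ratios of 2.19 (1.51 to 2.87) and 1.34 (1.01 to 1.66), and Trim30a was the other. LPS feedback regulators had 3 recovered of 28 (10.7%, also near it) and none lost, among them Nfkbia, the NF-kB inhibitor, with 50 and 60 reads and then 396 and 564 and ratios of 1.76 (1.23 to 2.30) and 1.29 (1.11 to 1.48). Cytokines and chemokines had 1 recovered (Ccl7) and 1 lost (Tgfb1) of 12. With the Input filter 3 of 23 interferon-stimulated, 2 of 26 feedback and 0 of 11 cytokine and chemokine genes were recovered. The Tgfb1 region had 76.3% GC, and that of Ccl7 35.2%.

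Few genes passed a limit on the difference in KO ratio between the treatments. The ratio was higher with LPS by at least 1 with an interval of the difference above 0 in 73 of 5605 genes (1.3%) and lower by as much in 100 genes (1.78%). These intervals are per gene, without allowance for the 5605 genes read. Across genes the difference had a standard deviation of 0.56, where counting error alone gives 0.55. That comparison covers all 5605 genes and not the set past the limit. How many genes would pass it from counting error alone was not computed. Among genes with at least 50 reads in both pairs the largest increases were those of Dnaja3, Thbs1, Zer1, Pfdn2 and Lgals9. Thbs1, the matrix protein thrombospondin, had 89 and 11 reads in untreated cells and 997 and 679 after LPS, and its ratio went from -1.40 (-2.27 to -0.53) to 0.23 (0.09 to 0.37), a difference of 1.64 (0.76 to 2.52). The difference of Zer1, 1.56 (-0.10 to 3.23), had an interval that included 0. The largest decreases were those of Nans, at -1.86 (-3.13 to -0.59), and of 4 Ugt1a symbols that share 1 region, with a difference of -1.53 (-2.39 to -0.68).

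Most of what the antibody recovered without CPEB4 it also recovered with it. Of the 510 genes recovered in both KO treatments and measured in both WT pairs, 369 (72.4%) were recovered in both WT pairs, where 1273 of 6600 genes were recovered (19.3%). Of 314 lost genes 206 (65.6%) were lost in both WT pairs, where 1226 of 6600 were lost (18.6%). Seen from the other side, the 369 genes were 39.3% of the 938 recovered in both WT pairs and measured in KO, and the 206 genes were 17.8% of the 1160 lost in WT. The median log2 ratio of the recovered genes was 1.56 and 1.54 in KO and 1.80 and 1.61 in WT, and that of the lost genes was -1.43 and -1.34 in KO and -1.46 and -1.66 in WT. Of the 510 recovered genes 81 were recovered in neither WT pair, and of the 314 lost genes 70 were lost in neither. The genotypes were 1 culture each, so genotype, culture and library cannot be told apart.

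**Figure D5:**
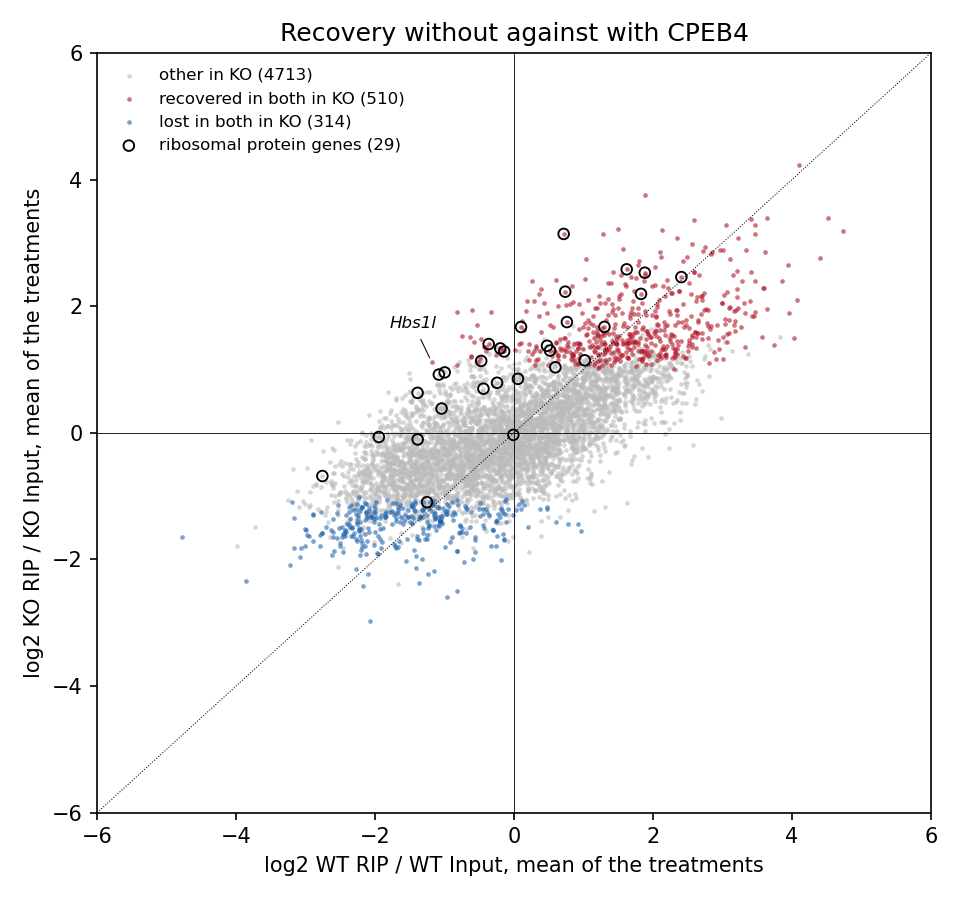
Mean of the log2 ratios of the treatments in WT (x axis) against KO (y axis) for the genes measured in all 4 pairs, coloured by the KO call, with ribosomal protein genes ringed and the dotted line marking equal values. Most recovered (red) and lost (blue) genes lie in the same quadrant in both genotypes, and most of the 29 ringed genes lie above the line. Part of the 29 passed the read filter through their KO RIP reads, so their place above the line is in part selected.

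Reads could not be given to a strand, because the library kit does not mark it. Of the 514 recovered genes 72 (14%) and of the 315 lost genes 61 (19.4%) had a region that overlapped an exon of another gene in the annotation, against 16.9% of all 5605. The lost genes counted by symbol also included 9 whose region is listed with the same coordinates under another symbol.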

How the data were processed

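RIP-seq and Input RNA-seq libraries of Cpeb4 KO and WT BMDMs were analysed from the authors' deposited tables, which give a read count and an RPKM value per annotated 3′-UTR region (mm10) and library. Reads were aligned with Bowtie2 2.2.2 (per the submitters' processing notes, which also name MACS 1.4.2), duplicates were removed with sambamba, and reads overlapping each Ensembl 3′-UTR were counted with GenomicRanges. How the lanes were joined into 1 column is not given in the sources used here. Removal of duplicates by position can cap the counts of abundant short regions. The authors' deposited counts are whole reads, and their RPKM values are per kilobase and library total, from which library totals were recovered for 1 alternative scaling. The tables' own fold changes, p-values and scores were not used. Rows without a symbol held 0.94% to 1.01% of the 3′-UTR reads of the KO libraries and were left out of the scaling.

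One region per symbol was kept, the one with the most reads over the 8 libraries. Each library was scaled to its sum over rows with a symbol, 1 read was added, and the log2 ratio of RIP over Input was given a 95% interval from the counts. Groups held 1 library each, so no test was made. Molecular identifiers are not described for these libraries, and intervals cover counting error only. A gene needed 20 reads in a pair. Named genes were the Cpeb genes, the 12 highest and lowest in both treatments and the 5 highest and lowest per treatment (at least 50 reads), the 5 largest differences between treatments each way, the study's 13 genes, the 4 most abundant genes of each list and the 2 nearest to each threshold. Other genes were named after their values were seen. The members and the 27 gene lists were chosen with earlier results of these data known, and 8 lists were added after values were seen. GC content, motifs and sites were read from the GRCm38.p6 genome, and CDS and exons from GENCODE M21. Python 3.11.15, pandas 2.3.3, scipy 1.17.1, pysam 0.24.0 and edgeR 4.0.16 (TMM factors) were used. The call rule was run on simulated counts with changes larger than the threshold, in genes with many reads and with counting error only. That run does not test calls near the threshold or at few reads. Scaling, added reads, read minimum, region choice and call rule were varied. Some items are not reported here.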

Additional observations from a re-analysis of the deposited data

Results flagged for a closer look

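Dagla, which makes the endocannabinoid 2-AG, was the 1 gene called in opposite directions in the treatments. It had 97 Input and 10 RIP reads in untreated KO cells, a log2 ratio of -1.65 (-2.55 to -0.75), and 15 and 21 reads after LPS, a ratio of 1.25 (0.32 to 2.17). The difference was 2.90 (1.60 to 4.19), and it was not tested, since each treatment had 1 library.

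Hbs1l, a ribosome rescue factor, was recovered in both KO pairs and lost in both WT pairs. It had 13 Input and 10 RIP reads in untreated KO cells and 16 and 20 after LPS, with ratios of 1.16 (0.02 to 2.29) and 1.09 (0.17 to 2.01), while its WT ratios were -1.14 and -1.23. KO minus WT was 2.30 in untreated and 2.32 in LPS-treated cells, and this difference between genotypes was not tested.

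Regions without a symbol were outside the comparisons. Of 478 with distinct coordinates, 126 had enough reads in both KO pairs, 11 were recovered in both and 6 were lost in both. Among the genes with a symbol 9.17% were recovered and 5.62% were lost in both, so these shares were near those of all genes.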

How the results depend on the processing

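No paired analysis was possible because each group had 1 library, and no replicate could be left out. The values that follow are for recovered and then lost genes. With library totals the counts were 244 and 2454 (untreated), 280 and 2407 (LPS) and 125 and 1656 (both), with median GC content of 35.2% and 51.3%, median length of 1336 and 1165 bases and 3.01 and 0.69 ATTTA per kb. TMM factors gave 926 lost genes in untreated cells and 474 in both. With 5 reads added 290, 453 and 159 genes were lost (untreated, LPS, both), with a median length of 1061 bases in both. Without a read minimum 1525, 1417 and 794 were recovered, and those in both had a median length of 1384 bases, 2.46 ATTTA per kb and a predicted CPE in 51.3%. With a minimum of 50 reads 450, 527 and 254 were recovered, with a median length of 2003 bases and a GC content of 35.9% in both. With 20 reads required in each Input alone, an alternative chosen after seeing the data, 261 were recovered. With the whole interval beyond the threshold 283 and 68 (untreated), 289 and 109 (LPS) and 150 and 30 (both) were called, with GC medians of 35.4% and 54.1%, lengths of 1421 and 1348 bases, 2.91 ATTTA per kb in recovered and a predicted CPE in 30% of lost genes. Relative to genes of like GC content, also chosen after seeing the data, the counts were 217 and 86. Among the named genes that were varied, no call changed sign under these scalings, added reads and region choices. Of their 728 values 10 lost their call and 10 gained one. Genes named only for 1 treatment, for a gene list or for nearness to a threshold were not varied in this way. Of 420 values of gene list medians 49 moved beyond the limit set for them, 46 of these with library totals. Recovered genes had few Input reads and lost genes few RIP reads, which limits the precision of both.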
